A study of Mus musculus with 6 samples.

Results

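Accessible chromatin around 9 genes of the Bcl2 family was read from 6 ATAC-seq peak lists of murine leukemia stem cells (LSCs). The genes were Bcl2, Bcl2l1, Mcl1, Bcl2l2, Bak1, Bid, Bcl2l11, Bmf and Pmaip1. Each gene was given a window, its body with 50 kb on either side, and every peak that overlapped a window was kept, which gave 807 of the 438111 peaks in the 6 lists. Overlapping peaks were merged into regions, and 186 of the 112852 merged regions of the genome lay in the 9 windows.

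The cells were L-GMP, the granulocyte-macrophage-progenitor-like LSC population of leukemia driven by the MLL-AF9 fusion. The labels give them as a cell line from blood with the genotype WT, kept in culture with serum and mouse IL3. Samples were 3 control LSCs and 3 LSCs given mycophenolate mofetil (MMF) for 24 h by the labels, and all 6 carried the MLL-AF9 leukemia. The study's own text gives more than 1 dose and time for this experiment, so no dose is stated here. MMF blocks IMPDH, the enzyme that commits purine synthesis to guanine nucleotides. The sources do not say whether the 3 samples of a group came from separate cultures or mice, so p-values measure only the spread between these samples, which may be technical. The study compared the groups to learn whether a shortage of guanine nucleotides alters chromatin accessibility in LSCs.

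Proteins of the Bcl2 family decide whether the outer mitochondrial membrane stays intact. BCL2, BCL-XL (from Bcl2l1), MCL1 and BCL-W (from Bcl2l2) keep it closed, whereas BAK (from Bak1) forms the pores that release cytochrome c. The BH3-only proteins BID, BIM (from Bcl2l11), BMF and NOXA (from Pmaip1) bind the guardians or activate the pore formers, and leukemic cells are known for leaning on BCL2 and MCL1. ATAC-seq reads where the transposase Tn5 can cut, so a peak marks open chromatin such as a promoter or an enhancer and does not give the amount of transcript.

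List length ran from 58496 to 63911 peaks in control samples and from 80893 to 86556 after MMF, with a median of 14 to 19 reads over a peak's summit. Peak strength is given as summit height, the reads over the summit divided by the genome-wide background of the same sample, so that a height of 50 means 50 times as many reads as an average position. Over all 41182 regions with a peak in all 6 lists (shared regions), the median difference in log2 summit height was 0.16, a factor of 1.12 in favour of MMF, against which the log2 differences are to be read. Of 10 L-GMP and MLL-AF9 marker genes, 5 had a promoter peak in all 6 lists and 1, Mpo, had none, and their summed promoter height was 328 to 383 in control and 389 to 435 with MMF. None of 5 T cell markers had a promoter peak, and of 5 B cell markers Ebf1 alone had one, with sums of 18.8 to 30.2 in control and 28.6 to 38.4 with MMF. The summed promoter height of 5 mature neutrophil markers was 57.8 to 77.4 in control and 178 to 200 with MMF (2 of the 5 in all 6 lists, none without a peak). For 5 macrophage markers it was 163 to 182 in control and 211 to 221 with MMF (2 in all lists, Marco and C1qa without a peak). For 5 erythroid markers it was 122 to 149.96 and 130 to 136 (1 in all lists, Hba-a1 without a peak). The L-GMP, neutrophil and macrophage sums were each higher in all treated samples than in all controls, and their part in the results was not tested. In bulk samples fewer cells of a type and less open chromatin per cell cannot be told apart.

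The sequences below are those that the results turn on, 100 bases around a summit, read 5′ to 3′ on the plus strand of GRCm38 (mm10). Capitals mark a match, on either strand, to 1 of 8 fixed motifs, and a line wholly in lower case holds no match. Distances are from the start of the window's gene, positive in the direction of transcription. The first set holds the gene starts of Bcl2, Bcl2l2 and Bcl2l11, shown because Bcl2l2 was the start called higher in height with MMF, and the other pair held the same GC box without such a call. The starts of Bid, Bmf and Pmaip1, not printed, also held a GC box within the 200 bp around the summit and had no such call.

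Bcl2 start, GC box, chr1:106714321-106714420: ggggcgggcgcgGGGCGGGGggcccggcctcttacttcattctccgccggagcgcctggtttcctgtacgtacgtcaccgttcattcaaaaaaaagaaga
Bcl2l2 start, GC box, chr14:54883270-54883369: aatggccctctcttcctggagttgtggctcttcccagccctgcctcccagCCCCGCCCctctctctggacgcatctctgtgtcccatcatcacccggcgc
Bcl2l11 start, NF-Y motif and GC box, chr2:128125908-128126007: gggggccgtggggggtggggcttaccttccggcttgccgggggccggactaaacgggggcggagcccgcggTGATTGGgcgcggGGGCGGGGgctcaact

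The second set holds shared regions away from gene starts whose summit height was higher with MMF, and the start of Bub1b, the only region that ranked lower by the limma test.

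Mcl1 window, -49.4 kb, higher with MMF, chr3:95609343-95609442: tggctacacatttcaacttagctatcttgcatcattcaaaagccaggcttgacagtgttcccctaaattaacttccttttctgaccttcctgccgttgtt
Mcl1 window, +35.1 kb, higher with MMF, chr3:95693877-95693976: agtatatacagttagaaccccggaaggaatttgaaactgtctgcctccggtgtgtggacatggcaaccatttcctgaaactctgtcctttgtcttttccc
Bcl2l1 intron, +25.6 kb, higher with MMF, AP-1 motif, chr2:152806066-152806165: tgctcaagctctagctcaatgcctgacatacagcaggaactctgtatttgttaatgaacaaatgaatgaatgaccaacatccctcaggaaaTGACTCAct
Bcl2l11 window, -14.2 kb, higher with MMF, C/EBP motif, chr2:128111773-128111872: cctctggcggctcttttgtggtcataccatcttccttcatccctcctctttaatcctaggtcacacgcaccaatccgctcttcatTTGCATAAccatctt
Bmf window, -24.2 kb, higher with MMF, chr2:118573832-118573931: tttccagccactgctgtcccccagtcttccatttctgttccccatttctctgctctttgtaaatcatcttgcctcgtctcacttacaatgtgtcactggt
Bub1b start in the Bmf window, -48.5 kb, ranked lower with MMF, chr2:118598099-118598198: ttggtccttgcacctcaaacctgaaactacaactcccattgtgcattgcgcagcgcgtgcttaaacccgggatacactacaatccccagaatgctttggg

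The last set holds regions with a peak in all MMF lists and no control list.

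Bcl2 intron, +159.8 kb, AP-1 motif, chr1:106554472-106554571: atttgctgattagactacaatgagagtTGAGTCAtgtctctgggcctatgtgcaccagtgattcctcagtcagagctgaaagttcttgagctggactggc
Bcl2 intron, +134.3 kb, C/EBP motif, chr1:106579963-106580062: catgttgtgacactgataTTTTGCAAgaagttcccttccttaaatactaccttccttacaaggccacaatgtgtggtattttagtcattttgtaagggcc
Bcl2 intron, +85.8 kb, AP-1 motif, chr1:106628392-106628491: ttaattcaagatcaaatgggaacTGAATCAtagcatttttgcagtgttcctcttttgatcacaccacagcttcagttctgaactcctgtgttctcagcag
Mcl1 window, +47.7 kb, chr3:95706392-95706491: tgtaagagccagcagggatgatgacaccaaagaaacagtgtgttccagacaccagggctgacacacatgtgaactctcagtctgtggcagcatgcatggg
Bcl2l11 intron, +15.7 kb, chr2:128141673-128141772: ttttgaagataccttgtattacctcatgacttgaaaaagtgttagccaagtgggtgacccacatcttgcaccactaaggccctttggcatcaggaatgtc

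The 9 genes lay in chromatin with many accessible regions. Bak1 (chr17:27019810-27029009, minus strand) had the densest window, with 25 regions or 22.9 per 100 kb, which placed it at percentile 99.5 among the windows of 21938 protein-coding genes. Bmf (chr2:118528757-118549687, minus) followed with 24 regions or 19.8 per 100 kb, and Mcl1 (chr3:95658788-95663176, plus) with 19 regions or 18.2 per 100 kb. The window of Bcl2 (chr1:106538178-106714274, minus), whose body spans 176.1 kb, held the most regions, 30, but only 10.9 per 100 kb. Between these extremes stood Bcl2l1 (chr2:152780668-152831728, minus, 24 regions), Bcl2l11 (chr2:128126038-128162547, plus, 17), Bid (chr6:120891930-120916853, minus, 16), Pmaip1 (chr18:66458533-66465565, plus, 16) and Bcl2l2 (chr14:54883377-54888234, plus, 15). The median over all protein-coding genes was 8.52 regions per 100 kb, below each of the 9 windows. Windows differ in length, and dense windows also hold the starts of neighbouring genes.

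Of the 186 regions, 12 covered a start of a member gene, 18 covered the start of another gene and 156 lay away from starts. All 12 member starts were open in all 6 lists, as were 15 of the 18 other starts and 63 of the 156 regions away from starts. By annotation, 89 summits lay between genes, 82 in introns, 10 in UTRs and 5 in coding exons. In all, 90 regions (48.4%) were present in every list, against 36.5% of the regions of the genome. A further 47 regions (25.3%, beside 31.3% of all regions) were found only in MMF lists and 13 (6.99%, beside 7.02%) only in control lists, while 36 (19.4%, beside 23.6%) were found in a single list.

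**Figure D1:**
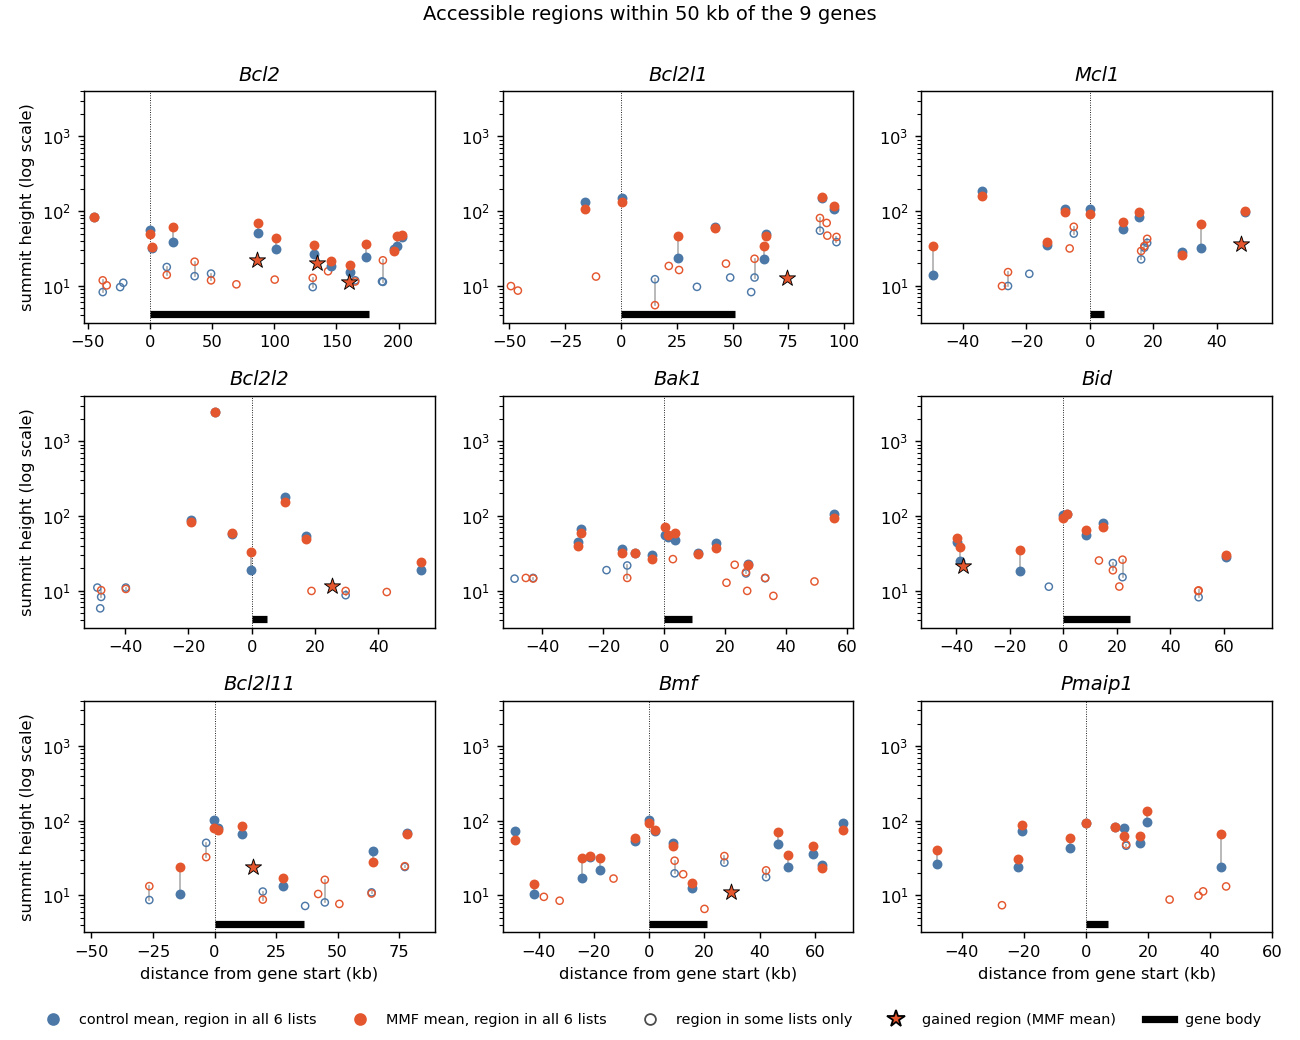
Each panel plots the accessible regions of 1 gene window by distance from the gene start (kb) against mean summit height (log scale), blue for control and orange for MMF, with open circles for regions missing from some lists, stars for regions gained with MMF and a black bar for the gene body. The 9 starts carried peaks in both groups, the region at -11.6 kb from Bcl2l2 was the highest of all, and the 9 stars lay away from starts.

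The promoters of the 9 genes were open with and without MMF. Promoter height was taken from the highest peak within 1000 bp of an annotated start, and all 9 genes had such a peak in all 6 lists. Bcl2l1, which encodes the guardian BCL-XL, had the highest promoter, with heights of 143, 145 and 161 in control and 129, 132 and 137 in MMF-treated LSCs. Every MMF value was below every control value. The means were 149.5 ± 10.2 and 133 ± 4.46 (SD, n = 3), a ratio of 0.887 with an exact two-sided permutation p of 0.1, the smallest that 3 against 3 samples can give. Mcl1, the short-lived guardian on which myeloid leukemia cells lean, read 102, 116 and 102 in control and 90.2, 94.9 and 87.2 with MMF. These groups did not overlap either, with means of 106 ± 8.16 and 90.8 ± 3.88 (SD, n = 3), a ratio of 0.854 and an exact permutation p of 0.1. As fold enrichment over the local background, the Mcl1 promoter difference had the opposite sign, 0.364, so its direction depends on the scale.

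Bcl2l2, which encodes BCL-W, had the lowest promoter of the 9, at percentile 20.0 by control mean among the 13925 promoters with a peak in at least 1 list, and the largest relative difference. Its heights were 19.2, 17.4 and 19.3 in control and 35.2, 26.9 and 35.5 with MMF. Each treated sample stood above each control, with means of 18.6 ± 1.11 and 32.5 ± 4.86 (SD, n = 3), a ratio of 1.75 and an exact permutation p of 0.1. The Bcl2 promoter read 56.3, 39.0 and 72.6 in control and 49.5, 52.4 and 44.3 with MMF. Its controls spread more widely than its treated samples and enclosed all 3 of them, and the ratio was 0.871 (exact permutation p of 0.6).

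Among the genes that promote death, Bcl2l11 read 107, 111 and 90.3 in control and 71.5, 90.7 and 81.3 with MMF. The highest treated sample and the lowest control overlapped, with means of 103 ± 11.1 and 81.2 ± 9.59 (SD, n = 3), a ratio of 0.789 and an exact permutation p of 0.2. Bak1 read 52.1, 60.7 and 64.5 in control and 68.2, 58.1 and 87.2 with MMF, a ratio of 1.20 with overlapping groups (exact permutation p of 0.3). Pmaip1, whose product NOXA antagonises MCL1, read 86.4, 114 and 80.6 in control and 86.9, 113 and 78.3 with MMF, means of 93.8 ± 17.97 and 92.9 ± 18.2 (SD, n = 3). Samples of the same number had close heights there, and the groups overlapped over nearly their whole range. Bid went from 102 ± 5.16 to 94.6 ± 12.8 and Bmf from 102 ± 9.25 to 92.5 ± 9.95 (SD, n = 3 each), both with overlapping groups and an exact permutation p of 0.4.

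In the order of control means, Bcl2l1 stood above the 8 other promoters and Bcl2l2 below them without overlap. Mcl1, Bcl2l11, Bmf, Bid and Pmaip1 followed Bcl2l1 with overlapping samples, and Bak1 and Bcl2 formed a lower pair that also overlapped. In 7 of 9 genes the mean was lower with MMF, and the median ratio was 0.904, beside 0.933 over 11687 promoters with peaks in all lists. Groups did not overlap in 2 of 9 promoters in the lower direction and 1 in the higher, where 15.2% and 7.61% of 13925 promoters with a peak did so. The lower means of the member promoters thus stood close to those of promoters in general.

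**Figure D2:**
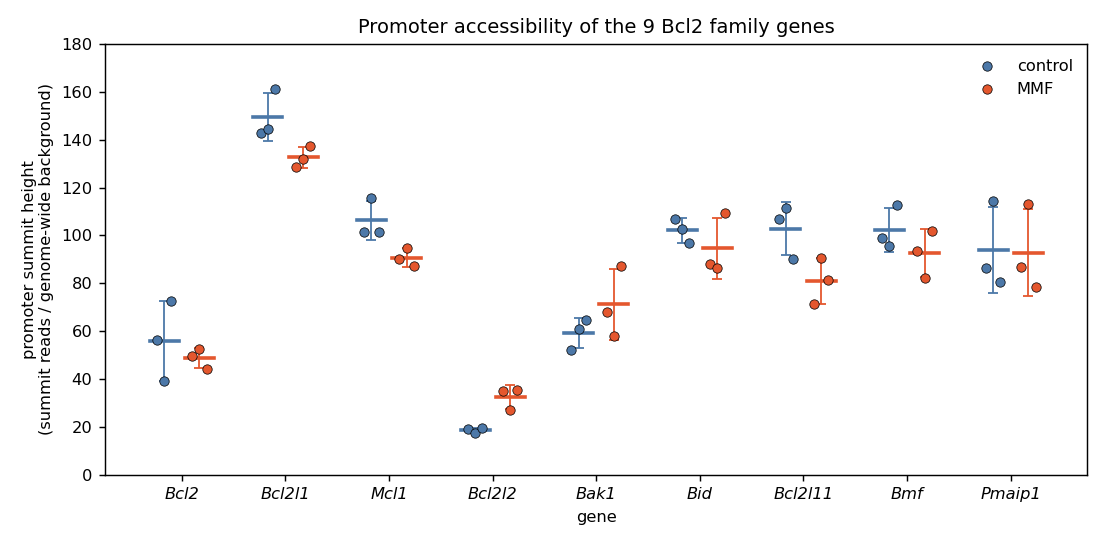
Promoter summit height (summit reads over genome-wide background) of each of the 9 genes in 3 control (blue) and 3 MMF (orange) samples, with points for samples, lines for means and error bars for the SD. Bcl2l1 was highest in both groups, and Bcl2l2 was lowest with all 3 treated samples above the controls.

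Each shared region was then tested across the genome. Regions were ranked by fold enrichment in each list, ranks were turned into normal scores (1 score unit is 1 SD of a standard normal distribution), and limma compared the groups with Benjamini-Hochberg adjustment over all 41182 shared regions. Of the 90 shared regions in the windows, 1 rose in rank with MMF and 1 fell, where 1.44% of all shared regions were called higher and 0.425% lower. At an unadjusted p under 0.05 there were 20 of 90 (22.2%), against 23.2% of all shared regions. Scores were lower with MMF in 67 and higher in 23 of the 90. The median difference was -0.26, beside -0.07 over all shared regions. It was -0.46 for the 12 member starts and -0.27 for all shared starts, and -0.16 for the 63 regions away from starts beside 0.05 for all such regions.

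The region that rose lay between genes at +43.6 kb from Pmaip1 (chr18:66501982-66502378). Its summit held 17, 13 and 19 reads in control and 59, 44 and 50 with MMF, heights of 23.3, 18.8 and 30.6 against 64.9, 62.3 and 73.9. The lowest treated sample was more than 2 times the highest control, and the means were 24.3 ± 5.97 and 67.0 ± 6.08 (SD, n = 3). The score difference was 1.47 (SE 0.263, limma adjusted p = 0.0404), and the fold in height was 2.81. Within 200 bp around its summit it held a RUNX, an AP-1 and an E-box match. The adjusted p was 0.075 to 0.12 when any 1 library was left out. Those fits called only 0 to 9 regions higher in the whole genome, so the loss of the call was not particular to this region.

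The region that fell in rank was the start of Bub1b, a kinase of the mitotic spindle checkpoint, at -48.5 kb from Bmf (chr2:118597668-118598487). Heights were 76.8, 72.3 and 72.6 in control and 50.6, 56.7 and 59.1 with MMF. Every treated sample was below every control, with means of 73.9 ± 2.54 and 55.5 ± 4.39 (SD, n = 3) and a score difference of -1.05 (SE 0.207, limma adjusted p = 0.047). On log2 summit height the difference was -0.42 and did not pass (limma adjusted p = 0.095). Leaving out any 1 library gave adjusted p of 0.0977 to 0.133 for the rank, in fits that called 0 regions of the genome lower.

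On the log2 summit height itself, limma called 11 of the 90 regions higher with MMF and 0 lower, where 18.6% of all shared regions were called higher and 0.971% lower. The calls among the members were thus a smaller share than in the genome. With no test applied, heights of all treated samples exceeded all controls in 19 of 90 regions (21.1%) and lay below them in 7 (7.78%), beside 29.1% and 7.66% of all shared regions. The 11 calls came from 8 windows, all but that of Bak1, and 10 lay away from starts. Folds ran from 1.44 to 2.81, or 0.36 to 1.33 on the log2 scale relative to the median of all shared regions.

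How heights are scaled decides part of these calls. When each sample was centred by its median ratio to the region means, 6 regions were higher and 2 lower, where 10.0% and 2.81% of shared regions were called. When each sample was centred at its own median log2 height, 6 were higher and 13 lower, where 6.91% and 13.9% were called. The 6 higher regions were the same under both, at +43.6 kb from Pmaip1, -49.4 and +35.1 kb from Mcl1, +25.6 kb from Bcl2l1, -14.2 kb from Bcl2l11 and -24.2 kb from Bmf. All 6 also stayed called on uncentred height when any 1 library was left out. These centrings were chosen after the heights had been seen.

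**Figure D3:**
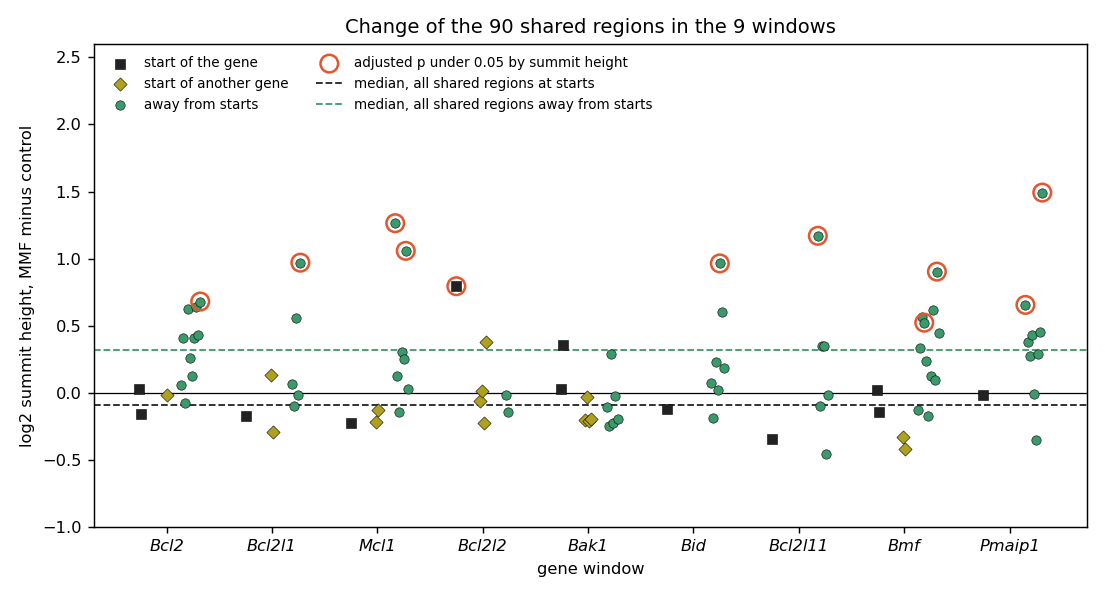
Difference in log2 summit height, MMF minus control, of the 90 shared regions by gene window, with squares for starts of the gene, diamonds for starts of other genes, circles for regions away from starts, rings for an adjusted p under 0.05 by limma on height and dashed lines for the medians of all shared regions at starts and away from them. The 11 ringed regions reached from 0.52 to 1.49, and 10 of them were circles.

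Among the windows of the guardians, that of Mcl1 held the largest height differences, in 2 regions nearer to the starts of other genes. The region at -49.4 kb (chr3:95609029-95609531) lay in an intron of Golph3l, and the nearest start was that of Ensa (15618 bp). It read 13.7, 13.0 and 14.5 in control and 45.1, 26.9 and 29.6 with MMF. All treated samples stood clear of the controls, with a log2 difference of 1.26 (SE 0.211, limma adjusted p = 0.0037). The region at +35.1 kb (chr3:95693711-95694772) lay between genes, and the nearest start was that of Adamtsl4 (6010 bp). It read 30.2, 30.4 and 35.5 in control and 69.3, 66.6 and 63.6 with MMF. Spread within groups was small there, with means of 32.0 ± 3.001 and 66.5 ± 2.87 (SD, n = 3) and a log2 difference of 1.06 (limma adjusted p = 0.0027). Its rank among shared regions differed little (score difference of 0.17, limma adjusted p = 0.667). Its fold enrichment over the local background was 7.35 to 8.39 in control and 9.38 to 10.8 with MMF. Within the whole list its percentile rank was 55.4 to 62.9 in control and 69.1 to 73.2 with MMF.

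The intron of Bcl2l1 at +25.6 kb (chr2:152805992-152806408) read 24.7, 27.5 and 19.3 in control and 45.1, 51.0 and 42.9 with MMF. The groups were well apart, with a log2 difference of 0.97 (SE 0.184, limma adjusted p = 0.0064), and the region carried the AP-1 match shown above. The intron of Bcl2 at +18.4 kb read 37.0, 36.2 and 43.5 against 60.5, 60.9 and 65.0. The groups were apart and the log2 difference was 0.68 (limma adjusted p = 0.0165), but it did not pass under either centring, nor without MMF replicate 3 (adjusted p = 0.0537). The start of Bcl2l2, described above, differed by 0.79 on the log2 scale (SE 0.176, limma adjusted p = 0.012), where 3.25% of 11556 shared regions at starts were called higher. It missed the threshold when centred by the median ratio (adjusted p = 0.0512) or at the sample median (adjusted p = 0.0961).

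Among the genes that promote death, the region at -14.2 kb from Bcl2l11 (chr2:128111446-128111966), in an intron of Acoxl, read 11.0, 8.68 and 11.3 in control and 23.1, 32.6 and 16.3 with MMF. Treated samples were all higher but spread widely, with a log2 difference of 1.17 (SE 0.248, limma adjusted p = 0.0102), and the region held a C/EBP match. The region at -24.2 kb from Bmf (chr2:118573767-118574112), between genes, read 17.8, 15.9 and 17.7 in control and 29.7, 32.6 and 34.0 with MMF. This was a narrow spread in both groups, with a log2 difference of 0.90 (SE 0.160, limma adjusted p = 0.0047). By height the Pmaip1 region at +43.6 kb had the largest difference of the 90, 1.49 on the log2 scale (SE 0.204, limma adjusted p = 0.00188).

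Calls at 3 further regions near death-promoting genes were less steady. The region at -16.0 kb from Bid, in a UTR of Mical3, read 13.7, 15.9 and 25.8 against 29.7, 34.0 and 41.4 (log2 difference 0.96, limma adjusted p = 0.0219). It passed in 2 of 6 fits without 1 library, the highest adjusted p being 0.0745 without MMF replicate 3. The region at -47.9 kb from Pmaip1 read 23.3, 27.5 and 27.4 against 35.2, 43.9 and 44.3 (0.65, limma adjusted p = 0.0256) and passed in 3 of 6 such fits. The region at +46.6 kb from Bmf, the best ranked of its window away from starts, read 43.9, 52.1 and 49.99 against 65.99, 72.2 and 71.0 (0.52, limma adjusted p = 0.0459) and passed in 0 of 6. None of the 3 passed under either centring.

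Some regions were lower only under centring. The region at +64.3 kb from Bcl2l11 read 38.4, 34.7 and 43.5 in control and 29.7, 28.3 and 26.6 with MMF, without overlap. Its log2 difference was -0.46 (limma adjusted p = 0.0803) and -0.64 when centred by the median ratio (limma adjusted p = 0.0335). The starts of Bcl2l1, Mcl1 and Bcl2l11 passed as lower only when samples were centred at their own medians, with log2 differences of -0.53, -0.58 and -0.70 (limma adjusted p = 0.0409, 0.033 and 0.0272). On that scale 28.7% of shared regions at starts in the genome passed as lower and 0.987% as higher. The 13 lower regions of the windows also held the starts of Tpx2, Ensa, Pabpn1, Zbtb9, Itpr3, Srp14 and Bub1b and regions away from starts at +16.9 kb from Bak1 (-0.60, limma adjusted p = 0.0456), +64.3 kb from Bcl2l11 and +12.3 kb from Pmaip1 (-0.71, limma adjusted p = 0.0277). Only Bub1b and the region at +64.3 kb from Bcl2l11 were also lower when centred by the median ratio, where 4.46% of shared starts passed as lower and 1.54% as higher.

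**Figure D4:**
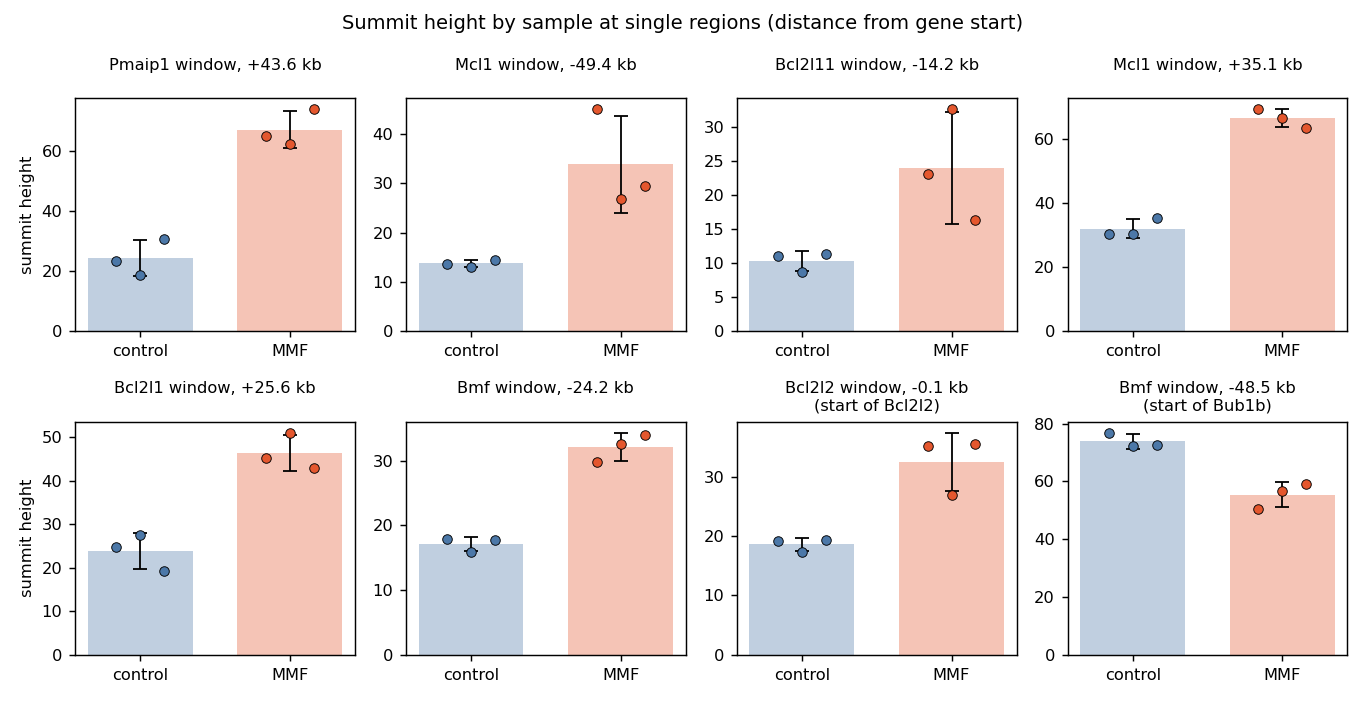
Summit height at 8 single regions in 3 control (blue) and 3 MMF (orange) samples, with points for samples, bars from 0 for means and error bars for the SD, and with the distance from the window's gene in each title. In 7 panels every treated sample stood above every control, and at the start of Bub1b every treated sample stood below.

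By role, the windows of the 4 guardians held 88 regions, of which 38 were shared, and 5 of those were called higher by height. Those of Bak1 and the 4 BH3-only genes held 98 regions, of which 52 were shared and 6 called higher. Of all shared regions in the genome, 18.6% were called higher by height. The median log2 height difference was 0.06 in the first group and 0.05 in the second, both below the 0.16 of all shared regions. Among shared regions of the windows away from starts the median was 0.25, beside 0.32 for all such regions. Bak1, the pore former, had no call by rank or by uncentred height among its 12 shared regions, and its window had a median of -0.15.

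The best ranked region away from starts in each window had a peak in all 6 lists. In an intron of Bcl2l11, at +11.2 kb, heights were 71.3, 68.0 and 61.3 in control and 75.9, 97.7 and 82.8 with MMF. The groups did not overlap, but the log2 difference of 0.35 did not pass (limma adjusted p = 0.189). At +19.8 kb from Pmaip1, heights were 103, 91.1 and 96.7 in control and 132, 163 and 108 with MMF, again without overlap and without a call (log2 difference 0.45, limma adjusted p = 0.126). The region at +49.0 kb from Mcl1 was even across groups, with 97.2 ± 6.38 and 98.8 ± 4.65 (SD, n = 3). Values at +86.9 kb in the Bcl2 intron were 50.7 ± 5.55 and 69.1 ± 15.4, and at +65.1 kb from Bcl2l1 49.4 ± 5.10 and 46.8 ± 10.7 (SD, n = 3). At +14.7 kb in the Bid intron they were 80.7 ± 7.08 and 71.3 ± 13.1, and at +16.9 kb from Bak1, in an intron of Ggnbp1, 43.4 ± 4.12 and 36.8 ± 6.59 (SD, n = 3). None of these was called by limma on ranks or on uncentred height. The Bak1 region at +16.9 kb passed as lower when samples were centred at their own medians.

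The top region of the Bcl2l2 window stood apart from the rest of the family. It lay between genes at -11.6 kb, was 150 bp wide and held 1593 to 2168 summit reads per sample, with heights of 2363 to 2591. Its groups overlapped, and the log2 difference was -0.02. It was the highest of the 186 regions and as narrow as the shortest peaks of the lists. Its fold enrichment was 59.1 to 59.9 in all 6 samples. No filter for regions of artificially high signal was applied here, and whether this peak is open chromatin was not tested.

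Gained regions had a peak in every MMF list and in no control list, and lost regions the reverse. The windows held 9 gained and 0 lost regions among 186, where 6.0% and 0.182% of all regions were gained and lost. The 9 lay in 7 of the 9 windows, while 40.5% of the windows of protein-coding genes held a gained region. Each of the 9 windows was denser in regions than the median window. Per region the gained share was 4.84%, beside 6.0% of all regions, so the windows were not richer in gained regions. Windows of Bak1 and Pmaip1 held none. All 9 gained regions lay away from gene starts, as did 95.9% of the gained regions of the genome. By place, 6 were intronic, 2 lay between genes and 1 in a coding exon, and they were weak, with heights of 8.80 to 41.4 and 6 to 34 summit reads.

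The highest was at +47.7 kb from Mcl1 (chr3:95706278-95706558), with heights of 37.4, 29.7 and 41.4 in the 3 treated samples. It lay beside the stronger shared region at +49.0 kb. Bcl2 gained 3 regions along its long intron, at +85.8 kb (27.5, 18.4 and 20.7), +134.3 kb (22.0, 18.4 and 20.7) and +159.8 kb (12.1, 12.7 and 8.87). Of these 3, the first and last held an AP-1 match and the middle one a C/EBP match, as printed above. The region at +85.8 kb lay beside the stronger shared region at +86.9 kb. Whether it or the Mcl1 region is a flank of its neighbour was not tested. Bcl2l11 gained an intronic region at +15.7 kb with heights of 22.0, 28.3 and 22.2. It had no counterpart in the controls, while the neighbour at +11.2 kb was open in all samples.

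The region gained at -37.4 kb from Bid, in an intron of Mical3, read 19.8, 22.7 and 20.7. Weaker ones were found at +74.5 kb from Bcl2l1 in an intron of Cox4i2 (13.2, 12.7 and 11.8), +25.5 kb from Bcl2l2 in a coding exon of Slc22a17 (11.0, 12.7 and 10.3) and +29.7 kb from Bmf (8.80, 12.7 and 11.8). Absence from a list means that no peak was called and not that no reads fell there. With the lists cut to an equal number of peaks, 2 of 145 regions in the windows were gained, beside 2015 of 85925 in the genome.

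Each window had more peaks on average with MMF. Summed over the 9 windows, 125, 120 and 116 peaks were found in control and 154, 150 and 142 with MMF, so that every treated list exceeded every control list. The means were 120 ± 4.51 and 149 ± 6.11 (SD, n = 3; exact permutation p = 0.1), a ratio of 1.24 where the whole lists differed by 1.37. As a share of its list the order was turned, with 0.196% ± 0.00252 in control and 0.176% ± 0.00194 with MMF (SD, n = 3; exact permutation p = 0.1). Treated lists were without overlap below the controls on that scale. By gene, groups did not overlap for Bcl2l1 (13, 11 and 14 against 20, 18 and 16), Bid (10, 10 and 11 against 14, 13 and 12), Bmf (18, 17 and 16 against 22, 21 and 21) and Pmaip1 (10, 11 and 10 against 13, 13 and 12). The share of all protein-coding windows without such overlap is not given here. With lists of equal length the total difference was -4.0 peaks, so the excess was not present there. By window the difference was then 0.667 for Bcl2l1, -0.333 for Bid, 0 for Bmf and 0.333 for Pmaip1.

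Other genes of the mitochondrial death pathway were read by their promoter regions, from a list of 32 with pore formers, further BH3-only genes, caspases, their inhibitors and apoptosome parts. Of these, 28 had a promoter region in all 6 lists, and 0 passed limma on ranks in either direction. Few starts passed anywhere, 21 as higher and 51 as lower among 11556 shared regions at starts. Scores of the 28 were lower with MMF in 23 and higher in 5, with a median of -0.30, close to the -0.27 of all starts. Promoters of Bax, the partner of BAK, read 54.9, 69.4 and 69.3 in control and 68.2, 69.4 and 65.0 with MMF, with no difference beyond the spread between samples. Those of Hrk and Bcl2l10 had no peak in any list, and Bok and Bcl2l15 had one in part of the lists.

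By uncentred height, 4 of the 28 were called higher and 0 lower, beside 3.25% and 1.19% of all shared regions at starts. Centred by the median ratio there were 2 higher and 0 lower, beside 1.54% and 4.46% of all shared regions at starts. Centred at the sample medians there were 2 higher and 11 lower, beside 0.987% and 28.7%. The 2 higher under both centrings were Bcl2a1b and Bcl2a1d. Bcl2a1b, a gene for the guardian A1, read 30.2, 26.0 and 29.0 in control and 74.8, 85.0 and 85.7 with MMF. The groups were far apart, with a log2 difference of 1.53 (limma adjusted p = 0.00103). Its near-identical copies Bcl2a1d and Bcl2a1a differed by 1.27 and 0.75 (limma adjusted p = 0.0017 and 0.0317), and since reads can map to more than 1 copy the values of the 3 are uncertain. Bcl2l14 differed by 0.60 (limma adjusted p = 0.0338).

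Motif matches in the 200 bp around each summit were counted on both strands, and a base could count for more than 1 motif. At the 12 member starts the GC box (GGGCGGGG) was found in 50% (6 regions), against 23.4% of all regions at starts. Over all 186 regions the C/EBP letters TTGCNNAA were found in 17.2% (15.0% of all regions), the PU.1 letters GAGGAAGT in 11.3% (8.28%) and the E-box CACGTG in 7.53% (4.50%). AP-1 (TGANTCA) was found in 15.1% (16.1%), RUNX (AACCACA) in 10.2% (10.7%), NF-Y (CCAATNA) in 8.06% (8.47%) and ETS (CCGGAAGT) in 0.538% (1.30%). These shares describe letters in a window and were not tested.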

How the data were processed

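ATAC-seq was run on 3 control and 3 MMF-treated samples. The submitters' processing notes name FastQC, Trim Galore, Bowtie2, MACS2 and the build mm10, and peaks were called on each sample separately. MACS2 options are not given in the sources used here. In the deposited lists each peak has a fold enrichment, a linear ratio of summit to local background, and −log10 p and −log10 q values. A score column that the authors also deposited, a rescaled −log10 p, was not used.

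Lists were limited to chromosomes 1 to 19, X and Y, which left out at most 0.27% of peaks. Whole summit reads and backgrounds were solved from fold enrichment and p for all member peaks, and in each list for no fewer than 99.9887% of peaks. Peaks overlapping by at least 1 bp were merged into regions, with genes from GENCODE M21. A promoter reached 1000 bp to either side of each start. Shared regions were tested with limma 3.58.1 (lmFit, eBayes, R 4.3.3, adjusted p under 0.05). Promoters and peak numbers were tested with exact permutation tests over all regroupings of the samples. Normal scores and the solving of reads used scipy 1.17.1. Sequences were read with pysam 0.24.0. Intervals and tests cover spread between samples only, and summits of few reads are imprecise. The steps were checked on simulated data.

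Named were the 9 genes, their start regions, every gained, lost or rank-called region, and the best ranked region away from starts in each window. The regions called by height, centred or not, and the genes of the pathway list named with values were chosen after their values were seen. The members and lists were chosen with earlier results of these data known. Alternatives were ranks within the whole list, ranks by −log10 p, log2 summit height, a −log10 q of at least 2, equal list length, a required overlap of 0.5 of the region, a promoter of 250 bp, a replicate block and leaving out each library, and 2 centrings of height were added after the data were seen.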

Additional observations from a re-analysis of the deposited data

How the results depend on the processing

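In the windows, limma on ranks called 1 region higher and 1 lower. Higher and lower calls were 5 and 0 with ranks within the whole list (2402 and 76 of all 41182 shared regions). With ranks by −log10 p they were 0 and 0 (533 and 192 of all). On log2 summit height they were 11 and 0. They were 6 and 13 when height was centred at the sample medians and 6 and 2 when centred by the median ratio. Genome shares for these 3 are given above. With lists of equal length 2 and 2 of 81 were called (959 and 383 of 35965 in the genome). With peaks covering 0.5 of the region there were 0 higher and 1 lower of 67 (278 and 64 of 25903). The Pmaip1 region at +43.6 kb could not be tested there. With a replicate block there were 0 higher and 0 lower, in the windows as in the whole genome. Same-numbered samples shared only a number. Their deviations correlated at 0.00698, 0.00296 and 0.00422, and those of other pairs at -0.00569 to 0.0013. These values are too small for a pairing to be read from them. Without any 1 library the calls in the windows were 0 in both directions, with 1 fewer sample in each fit. In the genome those fits called 0 to 9 regions higher and 0 lower. On log2 summit height without 1 library, 7 to 11 regions in the windows were called higher and 0 lower. Over the genome 4909 to 6740 were called in either direction. Gained regions numbered 9, 2 with lists of equal length, and 10 to 17 without 1 library, the highest without MMF replicate 3. In the genome the same counts were 6772, 2015 and 8333 to 10604, again highest without MMF replicate 3. Lost regions numbered 0, and 0 to 1 without 1 library (1 without Control replicate 1 and 1 without MMF replicate 3).

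Promoter differences (MMF minus control) turned for Bcl2 without Control replicate 3 (1.10 in height, from -7.20, with a range of -15.7 to 1.10 over the libraries left out), for Mcl1 as fold enrichment (0.364) and percentile rank (0.481), for Bak1 as percentile rank with lists of equal length (-8.93), and for Pmaip1 without Control replicate 2 (9.32, the range being -11.2 to 9.32), without MMF replicate 1 (2.06) and without MMF replicate 3 (6.33). The difference in peak number over the 9 windows was 28.3, and -4.0 with lists of equal length. By window at equal length it was -0.667 for Bcl2, -1.33 for Bcl2l2, -1.33 for Bak1, -0.333 for Bid and -1.67 for Bcl2l11. For Bcl2l1 it was 0.667, for Mcl1 0.333, for Bmf 0 and for Pmaip1 0.333. Under the other settings 34 counts and totals and 147 values of single promoters and windows kept their direction and stayed within 1.5 times or within the spread between samples. Of the counts and totals, 31 moved beyond those limits and 1 turned. Of the values of single promoters and windows, 3 moved and 12 turned. The cause of these differences was not tested, apart from the list length that the setting itself makes equal. Weak peaks rest on few reads, which limits gained regions most.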
